A study of Mus musculus with 6 samples.

Results

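Transcript levels of 9 genes of the pre-B cell receptor and of V(D)J recombination were examined in Asxl2-deficient LSK cells. The genes were taken by name from the gene symbols of the count files and are Cd79a, Cd79b, Vpreb1, Vpreb3, Igll1, Blnk, Rag1, Rag2 and Dntt. All 9 were found among the 24063 symbols listed, and all 9 passed the filter on low counts that left 14145 genes for testing. Each gene was represented by its transcript with the longest summed exon length.

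RNA sequencing had been performed on bone marrow cells negative for lineage markers and positive for Sca-1 and c-Kit (LSK cells), the fraction that holds blood stem cells and early progenitors. The cells came from 3 Asxl2-/- and 3 control mice of the C57BL/6 strain, and the controls were labelled wild type for Asxl2. Every mouse, controls included, carried Mx1-cre and had received pIpC, a double-stranded RNA that switches on the interferon-responsive Mx1 promoter and so the Cre recombinase. In the Asxl2-/- mice Cre removes exon 11 of floxed Asxl2 alleles, and because the Mx1 promoter responds in many cell types the deletion is not restricted to LSK cells. The marrow was taken 4 weeks after pIpC, and the labels give neither the age nor the sex of the animals.

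B-cell precursors assemble their heavy chain gene by V(D)J recombination. The Rag1 and Rag2 proteins cut the DNA at the gene segments, the enzyme terminal deoxynucleotidyl transferase, encoded by Dntt, adds untemplated bases to the cut ends, and general repair factors join them. The new heavy chain is then carried to the surface with a surrogate light chain, made of the products of Vpreb1 and Igll1 (VpreB and lambda5), and with the signalling pair Igα and Igβ from Cd79a and Cd79b. This pre-B receptor signals through the kinase Syk and the adaptor Blnk. Early lymphoid progenitors within and close to the LSK fraction are known to begin transcribing Rag1 and Dntt before B-lineage commitment.

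The libraries held 25528540 to 55032075 counts, with 16467 to 17327 genes at 1 count or more. The deposited files were of 2 kinds. Asxl2-/- replicates 1 and 3 and control replicate 2 gave 1 count per transcript (gene-count files). Asxl2-/- replicate 2 and control replicates 1 and 3 gave 1 count per exon (exon-count files), and because a spliced read can be counted in several exons their totals are higher and are no measure of depth. The deleted exon 11 of Asxl2 is resolved only in the exon-count files. It held 28 of 4804 Asxl2 counts in Asxl2-/- replicate 2, against 457 of 4433 in control replicate 1 and 492 of 4105 in control replicate 3. Xist stood at 1070 to 2350 CPM (counts scaled to a common library size) in Asxl2-/- libraries and at 13.0 to 61.3 CPM in control libraries, while Uty, Kdm5d, Eif2s3y and Ddx3y on the Y chromosome were at 0.0705 CPM or less in the former and at 32.7 CPM or more in the latter. Genotype and sex therefore cannot be told apart in any comparison below. In sorted populations, moreover, a larger share of cells with a transcript and more transcript per cell cannot be told apart.

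Of the 9 genes, 6 rose in Asxl2-/- LSK cells with an edgeR adjusted p under 0.05 (Cd79a, Vpreb1, Vpreb3, Igll1, Blnk and Rag1). No member fell, at an adjusted or an unadjusted p under 0.05 and with DESeq2 alike, and the fitted fold change of all 9 was above 0. Over all genes tested, 2.04% rose past the same threshold (288 of 14145). The median log2 fold change was 1.96 over the 9 genes and 0.001 over all genes tested. At an unadjusted p under 0.05, 8 of the 9 were higher, Dntt being the exception, against 15.0% of all genes tested. DESeq2 called those 8, against 8.3% of all genes raised. The number called by edgeR depended on single libraries: it was 0 without Asxl2-/- replicate 1 and 0 without control replicate 3, 2 without Asxl2-/- replicate 3, and 3 without control replicate 2. In the fits without Asxl2-/- replicate 1 or control replicate 3, 8 members were higher at an unadjusted p under 0.05, and 7 were without control replicate 2. The share of all genes in these fits is not given, as the 15.0% above belongs to the fit over 6 libraries. Below, the values of a group are listed in the order of its replicate numbers.

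For 8 of the 9, all but Dntt, the lowest Asxl2-/- library was above the highest control library, as was the case for 15.4% of all genes tested. Within the same kind of file, 8 of the 9 were higher in every pair of libraries, against 25.4% of all genes tested.

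**Figure D1:**
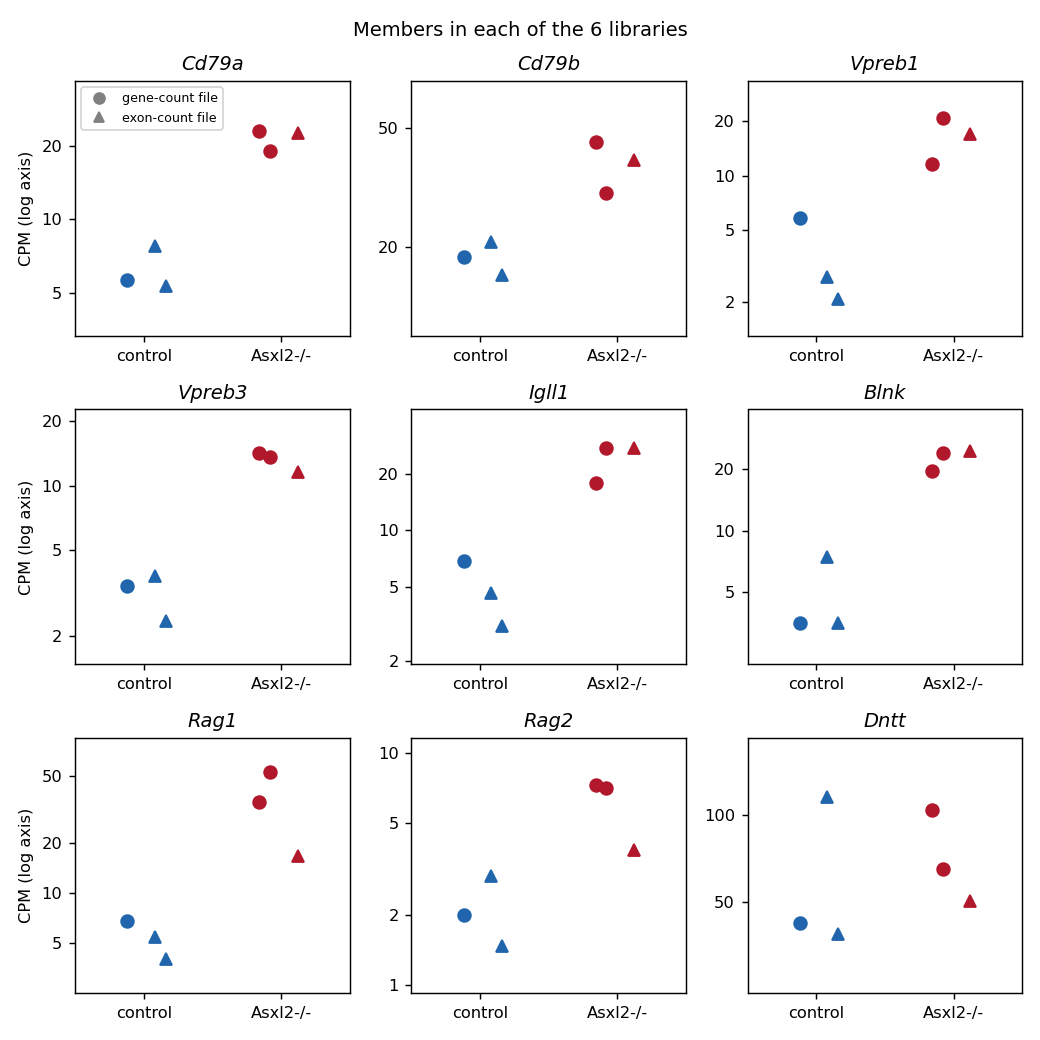
Level of each of the 9 genes in each library, as CPM scaled by TMM on a log axis, with 3 control libraries (blue) and 3 Asxl2-/- libraries (red). Circles mark gene-count files and triangles exon-count files. In every panel but that of Dntt all red points lie above all blue points, and in the Dntt panel control replicate 1 is highest, at 116 CPM.

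Igα and Igβ are the signalling chains that every B-cell receptor, from the pre-B stage on, uses to pass the signal inward. Cd79a (Igα, chr7:24897511-24902197 on mm10, 5 exons) stood at 23.0, 22.5 and 19.1 CPM in the Asxl2-/- libraries and at 7.75, 5.63 and 5.31 CPM in the controls. The 3 Asxl2-/- libraries lay close together and all were above the highest control. Cd79a rose 3.58-fold (log2 fold change 1.84 with an SE of 0.192, edgeR adjusted p = 0.0178), and each kind of file alone gave a similar log2 difference, 1.89 by gene counts and 1.80 by exon counts. It was no longer past the threshold without Asxl2-/- replicate 1 (edgeR adjusted p = 0.0789) or control replicate 3 (0.0995). Cd79b (Igβ, chr11:106311341-106314529, 6 exons) stood at 44.7, 39.0 and 30.3 CPM in Asxl2-/- cells and at 20.8, 18.5 and 16.1 CPM in control cells. Its groups did not overlap either. The fitted difference of Cd79b, 2.07-fold (log2 fold change 1.05, SE 0.188), missed the threshold with an edgeR adjusted p of 0.0507. It passed without control replicate 1 (log2 fold change 1.13, edgeR adjusted p = 0.0457) and with DESeq2 (1.00, adjusted p = 5.73e-05).

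The promoter of Cd79a is shown because the gene had the smallest adjusted p of the 9. Promoter sequences are those of RefSeq on GRCm38.p6 (the mm10 build), from 250 bases before to 50 after the start of the gene, 5′ to 3′ on the strand of the gene. They were available for 8 of the 9 genes, all but Cd79b. Capitals mark 4 motifs searched on both strands, and positions are counted from the start, taken as 0. The motifs were the E-boxes CAGGTG and CAGCTG, bound by E proteins, the core CCCNNGGG of sites of the B-lineage factor EBF, and TGTGGT of RUNX factors. Cd79a (chr7:24897247-24897546, plus strand) held CAGGTG at -154.
Cd79a: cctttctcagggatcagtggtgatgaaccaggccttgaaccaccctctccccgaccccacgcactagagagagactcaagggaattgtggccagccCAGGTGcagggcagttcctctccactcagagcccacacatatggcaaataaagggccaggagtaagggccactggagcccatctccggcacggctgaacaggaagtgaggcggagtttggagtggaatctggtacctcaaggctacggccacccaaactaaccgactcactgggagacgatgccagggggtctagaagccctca

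CAGGTG was found in 5 of the 8 promoters (Cd79a, Vpreb1, Igll1, Blnk and Rag1), and in 20% of 27025 mouse promoters of the same length. CAGCTG was in 2 of 8 (16.1% of all promoters), TGTGGT in 3 of 8 (16.9%) and CCCNNGGG in 1 of 8 (13.4%). Rag2 and Dntt had none of the 4. The window of Blnk starts from a site 314 bases inside the counted transcript and lies wholly within its exon 1, so its match is not upstream of that transcript. The other windows start at the counted transcript or at most 36 bases before it. No matches overlapped each other in the 8 windows, and they describe the letters only.

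The surrogate light chain has 2 parts, VpreB and lambda5, and their genes are neighbours. Vpreb1 (chr16:16868401-16869255, 2 exons) stood at 11.6, 17.1 and 20.9 CPM in the Asxl2-/- libraries and at 2.76, 5.80 and 2.07 CPM in the controls. Control replicate 2 was the highest control and Asxl2-/- replicate 1 the lowest knockout library, and both were gene-count files. The rise was 4.47-fold (log2 fold change 2.16 with an SE of 0.376, edgeR adjusted p = 0.0495), with a log2 difference of 1.42 by gene counts and 2.81 by exon counts. Of the 6 called genes Vpreb1 was nearest to the threshold. It lost the call without Asxl2-/- replicate 1, 2 or 3 (edgeR adjusted p = 0.0757, 0.0834 and 0.113) and without control replicate 1 or 3 (0.0609 and 0.181).

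Igll1 (lambda5, chr16:16860671-16863985, 3 exons) stood at 17.9, 27.8 and 27.6 CPM in Asxl2-/- cells and at 4.64, 6.88 and 3.06 CPM in control cells. The order of the libraries resembled that of Vpreb1, with Asxl2-/- replicate 1 lowest among the knockouts and control replicate 2 highest among the controls. Igll1 rose 4.93-fold (log2 fold change 2.30 with an SE of 0.33, edgeR adjusted p = 0.0319), with a log2 difference of 1.68 by gene counts and 2.87 by exon counts. The call was lost without Asxl2-/- replicate 1, 2 or 3 (edgeR adjusted p = 0.0687, 0.0525 and 0.0891) or control replicate 3 (0.131).

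Igll1 lies 4415 bases from Vpreb1 with no protein-coding gene between them. The ratio of Igll1 to Vpreb1 CPM was 1.54, 1.63 and 1.32 in the Asxl2-/- libraries and 1.68, 1.19 and 1.48 in the controls. The ratios of the groups overlapped. This and the other pairs of neighbours described below were chosen after their values were seen and carry no test. The ratios restate the levels given for each gene and set libraries of both kinds of file side by side.

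Vpreb2 is a near-identical copy of Vpreb1 elsewhere on chromosome 16, and reads from the shared stretches may have been assigned to either. Where both promoter windows overlap, 153 of 156 aligned bases were identical (98.1%). Vpreb2 stood at 1.74, 1.95 and 2.22 CPM in Asxl2-/- cells and at 0.537, 0.868 and 0.253 CPM in control cells (log2 fold change 1.75 with an SE of 0.434, edgeR adjusted p = 0.0819). It was thus not past the threshold, although its groups did not overlap. With the counts of both copies added, an alternative chosen after seeing the data, the log2 fold change was 2.11 (edgeR adjusted p = 0.0496).

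The windows of the 3 surrogate light chain genes show the stretch shared by the VpreB copies, from tggcccatgac on, and the CAGGTG within it, and the motifs of Igll1. Vpreb1 (chr16:16869206-16869505, minus strand) held CAGGTG at -88, Vpreb2 (chr16:17980315-17980614, plus strand) at -232 and Igll1 (chr16:16863936-16864235, minus strand) at -8, there as CACCTG. Vpreb2 also held CAGCTG at -60, beyond the end of the Vpreb1 window in this alignment. Igll1 also held CCCAGGGG at -231, CAGCTG at -158 and ACCACA, the reverse complement of the RUNX motif, at -123.
Vpreb1: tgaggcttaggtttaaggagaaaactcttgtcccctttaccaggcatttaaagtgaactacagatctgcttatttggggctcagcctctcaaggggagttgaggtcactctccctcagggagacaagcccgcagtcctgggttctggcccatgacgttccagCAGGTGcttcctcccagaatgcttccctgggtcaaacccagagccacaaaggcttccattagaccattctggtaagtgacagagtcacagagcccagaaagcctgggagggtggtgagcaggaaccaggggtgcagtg
Vpreb2: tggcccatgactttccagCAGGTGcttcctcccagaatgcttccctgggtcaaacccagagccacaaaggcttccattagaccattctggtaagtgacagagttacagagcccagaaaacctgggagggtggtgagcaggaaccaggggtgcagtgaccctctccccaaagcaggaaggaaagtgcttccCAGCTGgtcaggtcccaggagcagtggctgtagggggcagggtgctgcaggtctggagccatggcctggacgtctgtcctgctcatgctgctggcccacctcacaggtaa
Igll1: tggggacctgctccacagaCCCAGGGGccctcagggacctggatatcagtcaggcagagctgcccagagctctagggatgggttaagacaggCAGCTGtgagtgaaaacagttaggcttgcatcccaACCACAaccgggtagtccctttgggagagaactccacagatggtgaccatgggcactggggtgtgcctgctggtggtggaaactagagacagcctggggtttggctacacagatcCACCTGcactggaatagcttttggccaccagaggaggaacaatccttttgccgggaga

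Vpreb3 encodes a small protein related to VpreB that associates with newly made immunoglobulin chains inside the cell. On chr10:75948312-75949646 (2 exons), it stood at 14.1, 11.5 and 13.5 CPM in the Asxl2-/- libraries and at 3.78, 3.40 and 2.36 CPM in the controls. The knockout libraries were again close to each other and all above the controls. Vpreb3 rose 3.88-fold (log2 fold change 1.96 with an SE of 0.223, edgeR adjusted p = 0.0196), nearly alike by gene counts (2.0) and exon counts (1.92). It lost the call without Asxl2-/- replicate 1 or 3 (edgeR adjusted p = 0.0912 and 0.0595) and without control replicate 2 or 3 (0.0553 and 0.0995).

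Blnk, the adaptor that Syk phosphorylates below the pre-B receptor, had the largest fold change of the 9 in the fit over 6 libraries, though Rag1 was above it without the file kind (2.68 against 2.22 on the log2 scale) and Igll1 without control replicate 2 (2.85 against 2.15). On chr19:40928927-40994535 (17 exons), it stood at 19.6, 24.6 and 24.1 CPM in Asxl2-/- cells and at 7.44, 3.54 and 3.54 CPM in control cells. Control replicate 1 was above the other two controls and below every knockout library. Blnk rose 5.19-fold (log2 fold change 2.38 with an SE of 0.322, edgeR adjusted p = 0.029), with a log2 difference of 2.60 by gene counts and 2.25 by exon counts. The call was lost without Asxl2-/- replicate 1 or 3 (edgeR adjusted p = 0.0988 and 0.0713) and without control replicate 2 or 3 (0.0851 and 0.11).

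**Figure D2:**
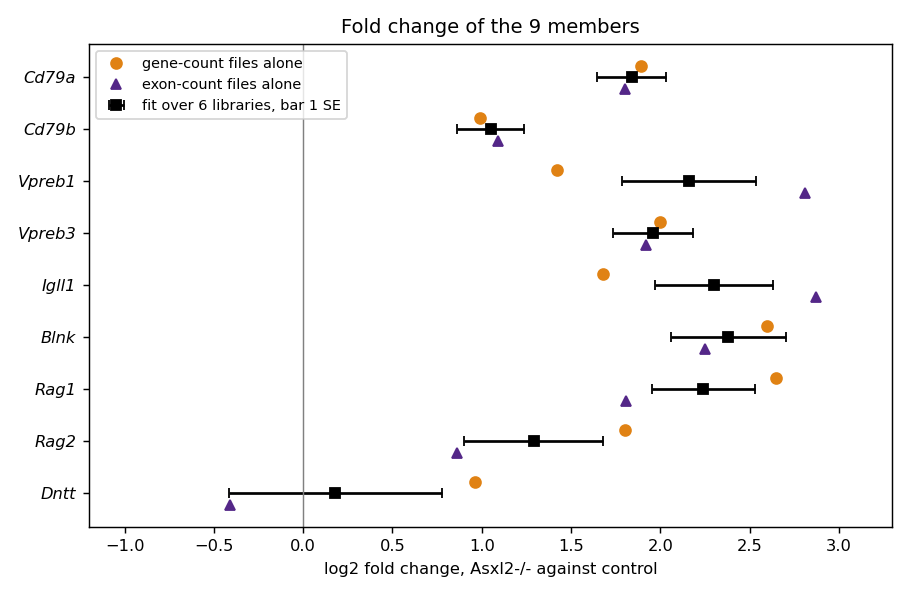
Log2 fold change of each of the 9 genes, Asxl2-/- against control, from the edgeR fit over 6 libraries (squares, with bars of 1 SE) and from the gene-count files (circles) or exon-count files (triangles) alone, which have no test. The fitted values run from 0.18 for Dntt to 2.38 for Blnk, and only Dntt has values on both sides of 0.

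Rag1 and Rag2 form the recombinase and are neighbours in the genome, transcribed towards each other. Rag1 (chr2:101638252-101649532, 2 exons) stood at 35.2, 16.6 and 52.8 CPM in the Asxl2-/- libraries and at 5.45, 6.84 and 4.05 CPM in the controls. Among the knockout libraries the exon-count library was lowest, and all were above the controls. Rag1 rose 4.71-fold (log2 fold change 2.24 with an SE of 0.288, edgeR adjusted p = 0.0268), with a log2 difference of 2.65 by gene counts and 1.81 by exon counts. The call was lost without Asxl2-/- replicate 1 (edgeR adjusted p = 0.0851), control replicate 2 (0.0627) or control replicate 3 (0.135). Rag2 (chr2:101624748-101632528, 3 exons) stood at 7.27, 3.83 and 7.05 CPM in Asxl2-/- cells and at 2.95, 2.01 and 1.48 CPM in control cells. Here too Asxl2-/- replicate 2 was the lowest knockout library and control replicate 1, likewise an exon-count file, the highest control. The groups did not overlap, but the fitted difference of Rag2, 2.45-fold (log2 fold change 1.29, SE 0.39), missed the threshold with an edgeR adjusted p of 0.11. The log2 difference of Rag2 was 1.80 by gene counts and 0.86 by exon counts. Rag2 had the fewest counts of the 9, from 58 to 205 a library. It passed without control replicate 1 (log2 fold change 1.63, edgeR adjusted p = 0.0389) and with DESeq2 (1.25, adjusted p = 0.0215).

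The gap between Rag1 and Rag2 is 5723 bases. The ratio of Rag1 to Rag2 CPM was 4.84, 4.33 and 7.48 in the Asxl2-/- libraries and 1.84, 3.40 and 2.74 in the controls. Unlike the pair of surrogate light chain genes, the lowest knockout ratio was above the highest control ratio, with no test.

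Dntt, which encodes terminal deoxynucleotidyl transferase, was the only member whose groups overlapped. On chr19:41029275-41059525 (12 exons), it stood at 104, 50.5 and 64.9 CPM in the Asxl2-/- libraries and at 116, 42.2 and 38.6 CPM in the controls. Replicate 1 was the highest library in each of them and the control replicate 1 was the highest of all. The fitted log2 fold change of Dntt was 0.18 with an SE of 0.595 (edgeR adjusted p = 0.87), the largest SE of the 9. The log2 difference was 0.96 by gene counts and -0.41 by exon counts. Without control replicate 2 the log2 fold change was -0.62 (edgeR adjusted p = 0.649), and without Asxl2-/- replicate 1 it was -0.089 (0.947).

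Dntt lies 34739 bases from Blnk with no protein-coding gene between them. The ratio of Blnk to Dntt CPM was 0.189, 0.486 and 0.371 in the Asxl2-/- libraries and 0.0642, 0.084 and 0.0917 in the controls. All knockout ratios were above all control ratios, with no test, which restates the levels given above for Blnk and Dntt.

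The promoters of Rag1 and Dntt are set side by side as those of the member of the recombination group that rose past the threshold and of the one with overlapping groups. The pair was thus chosen by its results. Rag1 (chr2:101649483-101649782, minus strand) held CAGGTG at -135 and CAGCTG at -128, separated by 1 base, and TGTGGT at -81 and -67. Dntt (chr19:41029025-41029324, plus strand) held none of the motifs searched. The window of Rag2, whose knockout libraries were all above the controls, held none of them either.
Rag1: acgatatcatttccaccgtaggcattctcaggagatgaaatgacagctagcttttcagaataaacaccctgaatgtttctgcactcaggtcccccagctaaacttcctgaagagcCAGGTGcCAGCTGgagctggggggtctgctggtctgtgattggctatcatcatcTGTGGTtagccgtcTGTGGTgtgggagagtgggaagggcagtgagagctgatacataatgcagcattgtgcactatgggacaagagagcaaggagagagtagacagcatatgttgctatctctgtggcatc
Dntt: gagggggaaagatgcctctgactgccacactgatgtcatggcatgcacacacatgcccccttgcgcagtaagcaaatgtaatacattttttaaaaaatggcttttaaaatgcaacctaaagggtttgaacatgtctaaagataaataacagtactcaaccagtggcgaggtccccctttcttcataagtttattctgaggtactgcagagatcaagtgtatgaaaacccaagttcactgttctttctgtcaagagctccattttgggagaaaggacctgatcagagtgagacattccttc

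Levels can be set against each other between genes only per length of transcript and within 1 kind of file. In Asxl2-/- replicate 1, a gene-count file, Dntt was at 48.7 CPM per kb, Cd79b at 37.3, Vpreb3 at 23.4, Igll1 at 20.6, Cd79a at 17.3 and Vpreb1 at 15.2 CPM per kb. Blnk, Rag1 and Rag2 were lower, at 9.34, 5.28 and 2.14 CPM per kb. In Asxl2-/- replicate 3, the other gene-count knockout library, Igll1 was first, at 31.7 CPM per kb, followed by Dntt (30.5), Vpreb1 (27.2), Cd79b (25.3), Vpreb3 (22.5) and Cd79a (14.4 CPM per kb). In control replicate 2, also a gene-count file, Dntt and Cd79b were first, at 19.8 and 15.5 CPM per kb, and Igll1 (7.90), Vpreb1 (7.55), Vpreb3 (5.65) and Cd79a (4.24 CPM per kb) followed. Blnk, Rag1 and Rag2 were the lowest 3 in each of these libraries, at 11.5, 7.91 and 2.08 CPM per kb in Asxl2-/- replicate 3 and at 1.69, 1.03 and 0.594 CPM per kb in control replicate 2. With 2 knockout libraries and 1 control library of this kind, differences in the order of neighbours have no test.

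The exon-count files show where along each gene the counts lay. Asxl2-/- replicate 2 was above control replicates 1 and 3 in CPM in 40 of 40 exons of the 8 members other than Dntt. For Dntt it was above both controls in 0 of 12 exons. The same library was above both controls in 10 of 12 exons of Asxl2, whose log2 fold change was 0.11. Exons of a gene are not independent and only 1 knockout library is compared, so these counts repeat the differences by gene. The share over all exons is not given. Rag1 counts lay almost wholly in exon 2, which holds the coding sequence, with 860 counts in Asxl2-/- replicate 2 and 278 and 190 in control replicates 1 and 3. In Dntt, exon 11 (60 bases, chr19:41058567-41058626) is present only in the longer of the annotated isoforms. It held 34 of 2687 Dntt counts in Asxl2-/- replicate 2 (1.27%, 95% Wilson interval 0.907 to 1.76), 1.06% (0.83 to 1.35) in control replicate 1 and 1.20% (0.794 to 1.81) in control replicate 3. These intervals overlapped and cover counting error only, so no difference in the use of this exon was detectable at this depth.

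**Figure D3:**
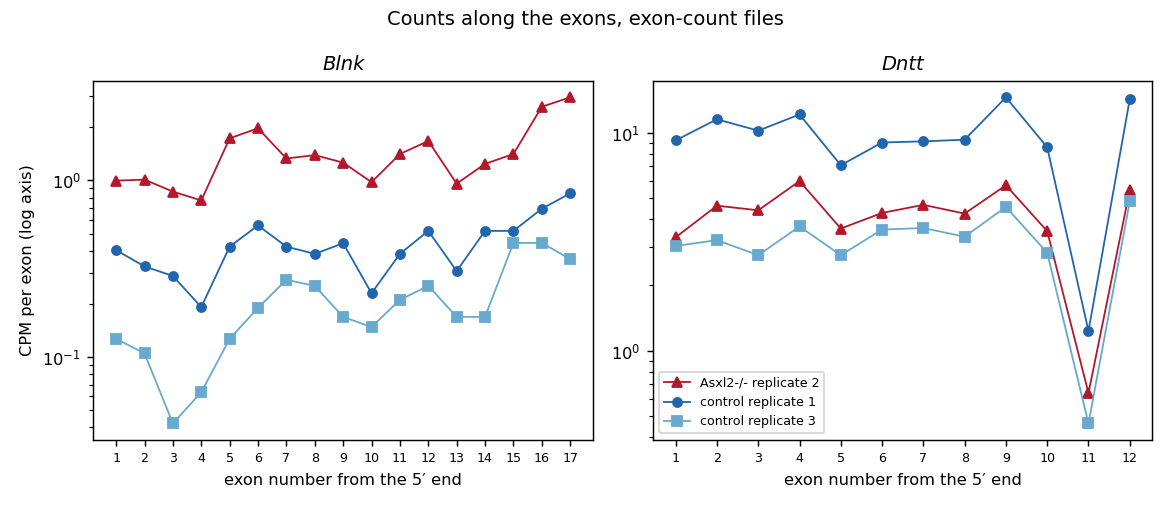
Scaled counts (CPM, log axis) in each exon of Blnk (17 exons) and Dntt (12 exons), numbered from the 5′ end, in the 3 exon-count files. For Blnk the Asxl2-/- library (red) lies above both controls (blue) in 17 of 17 exons, and for Dntt it lies between them in 12 of 12.

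The members varied in how closely they followed each other over the 6 libraries. With the file kind removed and each log2 profile centred, the root mean square distance from the mean profile of the 9 was smallest for Vpreb3 (0.129) and Cd79a (0.13). It was 0.288 for Rag2, 0.35 for Rag1, 0.372 for Blnk, 0.406 for Cd79b, 0.443 for Igll1 and 0.47 for Vpreb1, and largest for Dntt (0.848). Over the same 6 libraries, the 5 other genes closest to that mean profile were Eid2 (distance 0.0914), Rarg (0.0917), Tenc1 (0.092), Sh3pxd2a (0.111) and Cplx2 (0.111). They are a description of likeness over libraries of 2 groups, in which any gene with a similar difference between the groups comes close.

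Other genes of the pathway were read from lists by role. Among 19 further genes of pre-B receptor signalling, 1 rose and none fell with edgeR, against 6 at an unadjusted p under 0.05 and 3 raised and 2 lowered with DESeq2. Over all genes tested, 2.04% rose with edgeR, 27.7% had an unadjusted p under 0.05, and DESeq2 raised 8.3% and lowered 7.97%. The median log2 fold change of the 19 genes was 0.15. The kinase Syk, at 121 to 241 CPM in all libraries, had a log2 fold change of 0.51 (edgeR adjusted p = 0.0854).

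The factors that cut and join DNA beside Rag1, Rag2 and Dntt are used by many cells. Of 17 such genes, none passed the threshold with edgeR, 2 had an unadjusted p under 0.05, and DESeq2 called 1, which was lowered. Of all genes tested, 27.7% had an unadjusted p under 0.05 and DESeq2 lowered 7.97%. The median log2 fold change of the 17 genes was -0.02. The smallest p-values belonged to the histone gene H2afx (log2 fold change -0.42, edgeR adjusted p = 0.0875), to Xrcc4, the partner of DNA ligase IV (0.35, adjusted p = 0.174), and to Trp53bp1, which encodes a DNA break response protein (0.23, adjusted p = 0.243).

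Among 18 regulators upstream of these genes, 4 rose and none fell, and the median log2 fold change was 0.91. An unadjusted p under 0.05, in either direction, was reached by 12 of the 18, against 27.7% of all genes tested. Among these 12, Tcf3 (log2 fold change -0.32), Irf8 (-1.27) and Id2 (-1.37) were lower in Asxl2-/- cells. Of the 18, 13 had a log2 fold change above 0. DESeq2 called 9 raised and 1 lowered, against 8.3% and 7.97% of all genes. The share of all genes raised with edgeR was 2.04%. Ebf1, the B-lineage factor that activates Cd79a, Igll1 and Vpreb1, stood at 18.5, 18.3 and 26.2 CPM in the Asxl2-/- libraries and at 5.16, 4.55 and 3.46 CPM in the controls (log2 fold change 2.19, edgeR adjusted p = 0.0183). Pax5, which holds cells in the B lineage, rose by 1.80 on the log2 scale (edgeR adjusted p = 0.0322). Lef1 rose by 1.92 (adjusted p = 0.0319) and the coactivator gene Pou2af1 by 1.70 (adjusted p = 0.0427). These calls were lost without single libraries: that of Ebf1 without Asxl2-/- replicate 1 (edgeR adjusted p = 0.0676) or control replicate 2 or 3 (0.0534 and 0.101), and those of Pax5 and Pou2af1 without Asxl2-/- replicate 1 or 3 or control replicate 2 or 3 (0.0771 to 0.16). The call of Lef1 was lost without any of these 4 libraries or Asxl2-/- replicate 2 (0.0643 to 0.127). With library size as the only scaling, Lef1, Pax5 and Pou2af1 missed the threshold (edgeR adjusted p = 0.051, 0.0551 and 0.0638). Flt3, a receptor of early lymphoid progenitors, had a log2 fold change of -0.34 (edgeR adjusted p = 0.54).

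**Figure D4:**
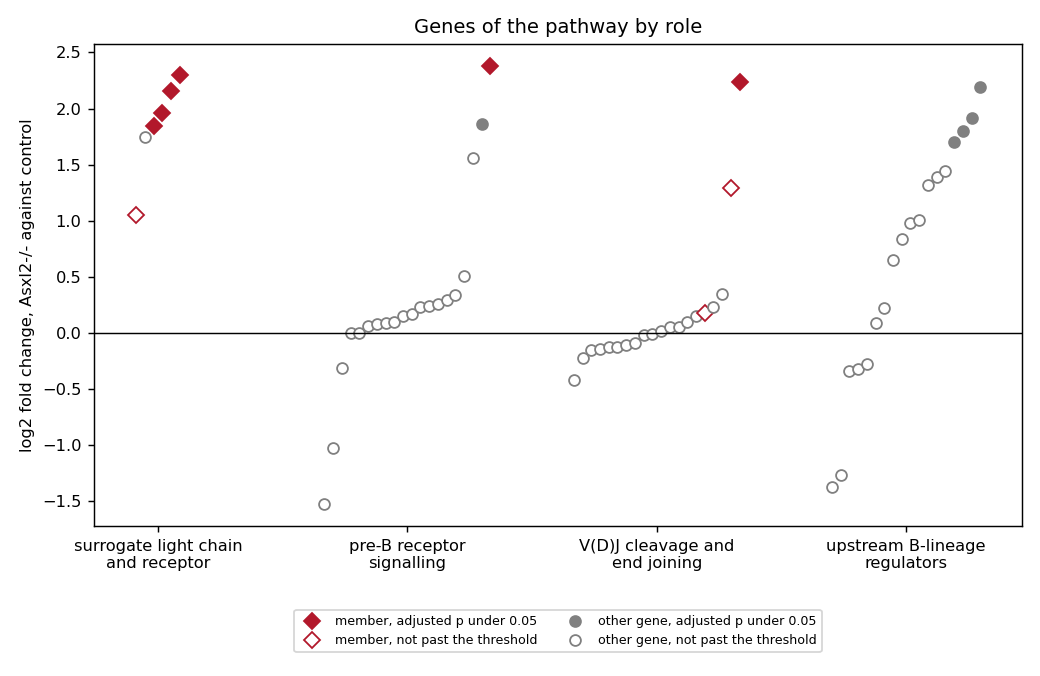
Log2 fold change, Asxl2-/- against control, of every tested gene of the 4 pathway lists, in rising order within a list, with the 9 members as diamonds, other genes as circles, and filled symbols for an edgeR adjusted p under 0.05. Filled symbols stand above 0 in all 4 lists, and the circles of the list of V(D)J cleavage and end joining all lie between -0.42 and 0.35.

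The sort and the presence of other cells were checked by their markers. Kit stood at 280 to 431 CPM in every library (log2 fold change 0.23, edgeR adjusted p = 0.453). Ly6a, which encodes Sca-1, stood at 52.6, 69.1 and 57.6 CPM in Asxl2-/- cells and at 40.5, 260 and 148 CPM in control cells, with overlapping groups (log2 fold change -1.34, edgeR adjusted p = 0.187). The summed level of 11 mature B and plasma cell markers was 131 to 182 CPM in Asxl2-/- and 120 to 151 CPM in control libraries, and 0 of 11 passed the threshold with edgeR, with 1 at an unadjusted p under 0.05 and 1 raised with DESeq2. Of the 11, 10 had a log2 fold change above 0, with a median of 0.41. Ms4a1 (CD20) was at 10.5, 2.41 and 3.31 CPM in the Asxl2-/- libraries and at 1.9, 1.08 and 1.5 CPM in the controls, without overlap (edgeR adjusted p = 0.22). Of 12 neutrophil markers 2 rose with edgeR (Ltf and Ngp), 7 had an unadjusted p under 0.05, and DESeq2 called 6 raised and none lowered. The log2 fold change was above 0 for 8 of the 12 neutrophil markers, with a median of 1.47. Their summed level, to which abundant markers contribute most, was 2560 to 6730 CPM in Asxl2-/- and 2620 to 7870 CPM in control libraries. The sum of 12 erythroid markers was 805 to 1590 CPM in Asxl2-/- and 2240 to 3450 CPM in control libraries, with 0 of 12 past the threshold with edgeR, 7 at an unadjusted p under 0.05 and 6 lowered with DESeq2. For T cells the sum was 60.9 to 72.3 CPM in Asxl2-/- and 65.1 to 90.7 CPM in control libraries, for plasmacytoid dendritic cells 304 to 341 CPM and 324 to 490 CPM, and for neural markers 114 to 290 CPM and 186 to 210 CPM. Of these 3 lists, with 11, 11 and 10 genes tested, 0 genes passed with edgeR, while 1, 3 and 1 had an unadjusted p under 0.05 and DESeq2 lowered 1, 2 and 1. For all marker lists, the shares of all genes tested were 2.04% raised with edgeR and 27.7% at an unadjusted p under 0.05. With DESeq2 they were 8.3% raised and 7.97% lowered. No marker listed in the files was at 0 in all libraries. The part of such cells in the differences of the 9 genes was not tested.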

How the data were processed

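RNA-seq libraries of the study were poly(A)-selected and unstranded. The deposited values were raw counts per RefSeq transcript or per exon on mm10. The authors' processing notes name STAR, featureCounts and DESeq2 without roles or versions. Exon counts were summed over the chosen transcript, and no exon base of the 9 genes is shared with another gene. Counts were tested with edgeR 4.0.16 (quasi-likelihood test, two-sided, TMM scaling, filterByExpr) in R 4.3.3, with file kind and group as terms, leaving 3 residual degrees of freedom. P-values were adjusted over all 14145 genes by the Benjamini-Hochberg method (threshold 0.05), and the fit was tested on simulated data. The SE of a gene was derived from this test, as the absolute log2 fold change divided by the square root of the F statistic. Differences within a file kind rest on 3 libraries and carry no test. DESeq2 1.42.0 was an alternative. The 6 pairs of libraries with the same kind of file differed by more than sampling noise (lowest chi-square per degree of freedom 25.51). The p-values measure the spread between these samples, 3 a group. The named genes were the 9 members, Vpreb2, Asxl2, Kit, Ly6a, Flt3, sex-linked genes, the 5 closest profiles and, per pathway list, those past the threshold (at most 6) or otherwise the 3 with the smallest p-values. Ms4a1, Ltf, Ngp, Tcf3, Irf8 and Id2 were named after their values were seen. Some genes that the rule would name are not reported here. The members and lists were chosen with earlier results of these data known.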

Additional observations from a re-analysis of the deposited data

How the results depend on the processing

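Whether the replicate numbers pair the libraries is unclear. The correlations of deviations from the group means were 0.29421, -0.00766 and -0.0027714 for numbers 1, 2 and 3, and 0.6353, 1 and 0.38837 after removal of the file kind, where the value for number 2 is fixed by the design. With the replicate block added to the file kind, 5179 genes passed (2767 raised, 2412 lowered) and so did all 9 members, among them Cd79b (log2 fold change 1.04), Rag2 (1.34) and Dntt (0.27, adjusted p = 0.0338), in a fit with few residual degrees of freedom. With the block and without the file kind Cd79b passed at 1.03. The number of genes past the threshold, 331 in edgeR, was 2302 with DESeq2 (1174 raised, 1128 lowered) and 161 with library size only (142 raised, 19 lowered), and 9 to 1312 when 1 library was left out. Between 0 and 7 of the 9 genes were then called, and the fold changes ranged from 1.74 to 1.98 for Cd79a, 0.92 to 1.13 for Cd79b, 1.49 to 2.82 for Vpreb1, 1.83 to 2.13 for Vpreb3, 1.73 to 2.85 for Igll1, 2.15 to 2.70 for Blnk, 1.81 to 2.68 for Rag1, 0.78 to 1.83 for Rag2 and -0.62 to 1.00 for Dntt, whose sign turned without Asxl2-/- replicate 1 (-0.089) and control replicate 2 (-0.62). Vpreb1 missed the threshold with median-ratio scaling (2.12), library size only (2.25), TMM within each file kind (2.16) and the longest exon (2.12), at adjusted p-values from 0.0507 to 0.0606, and Blnk with library size only (2.46, 0.0518), which also ended the calls of Lef1, Pax5 and Pou2af1. Cd79b passed with DESeq2 (1.00) and without the file kind (1.04), and Rag2 with DESeq2 (1.25). In the gene-count files alone the values were 1.42 for Vpreb1, 1.68 for Igll1, 2.65 for Rag1, 1.80 for Rag2 and 0.96 for Dntt, and in the exon-count files alone 2.81 for Vpreb1, 2.87 for Igll1, 1.81 for Rag1 and -0.41 for Dntt. Kit turned to -0.13 in exon counts alone, and its range was -0.13 to 0.59 over the fits that left out 1 library. The cause of these changes was not tested. The median over the 9 genes kept its direction in every alternative run. Under each alternative for which this was counted, 8 or 9 members were higher in every same-kind pair. The count was 9 without Asxl2-/- replicate 2 and without control replicate 1, where fewer pairs remain and the criterion is easier to meet. The share of all genes, 25.4% in the main run, is not given for the alternatives.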
